A study of Mus musculus with 24 samples.

Results

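Gapmer 3 was set against gapmer 1 in bleomycin-injured mouse lung, as 5 arrays against 5 of the 24 arrays of the series. A gapmer is a short antisense oligonucleotide whose DNA centre recruits RNase H to cut the RNA it pairs with, and both oligonucleotides were directed at the long noncoding RNA Dnm3os. The arrays were chosen by sample title alone, so no measured value entered the choice. All 20728 named genes of the array were compared, each by its feature with the highest mean over the 24 arrays. The comparison asks whether the pair of oligonucleotides against the same RNA left different transcriptomes in injured lung, and how large a difference the data still allow.

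Each array held Cy3-labelled total RNA of 1 whole-lung sample; the mice were C57BL/6, aged 9 to 12 weeks, and the platform was a one-colour Agilent array. Both groups compared had received bleomycin, which breaks DNA and is given to rodents to model lung fibrosis, and a gapmer against Dnm3os. The groups used for context were bleomycin with a control gapmer, of 5 arrays, and PBS with the control gapmer, gapmer 1 or gapmer 3, of 3 arrays each. Dose, route, time after bleomycin and the number of animals behind a sample do not appear in the labels. As the labels tie no sample to an animal, every p-value rests on sample-to-sample spread, which may be technical. In whole lung, fewer cells of a type and less RNA per cell cannot be told apart.

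Dnm3os is transcribed from the strand opposite to Dnm3, the gene of a dynamin GTPase, and is the precursor of microRNAs of the miR-199a and miR-214 families. It is known as a transcript of mesenchymal cells that responds to TGF-beta in fibroblasts. Its microRNAs have been described to act on Cav1, Gsk3b, Ptgs2, Fgf7 and Hgf, among other RNAs. A gapmer can also cut or bind other RNAs that its bases match, and gapmers with different sequences share the intended target but not those others. The labels do not give the gapmers' base sequences.

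The mature microRNAs encoded in Dnm3os are shown because they connect the targeted RNA with the target genes described later. The sequences are those of RefSeq on GRCm38.p6, plus strand of chromosome 1, with the seed, bases 2 to 8, in capitals.
mmu-miR-199a-5p, chr1:162217844-162217866: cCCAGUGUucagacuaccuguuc
mmu-miR-199a-3p, chr1:162217883-162217904: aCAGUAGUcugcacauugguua
mmu-miR-214-5p, chr1:162223397-162223418: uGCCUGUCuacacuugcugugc
mmu-miR-214-3p, chr1:162223438-162223459: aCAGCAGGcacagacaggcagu
All 4 seeds differ from each other. The levels of the mature microRNAs were not analysed here.

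Deposited values were log2 intensities between 5.03 and 18.25, with array medians between 6.485 and 6.495, and the number of arrays limits the precision. RNA integrity averaged 9.56 in both bleomycin groups compared. Genes that define lung were bright on all 10 arrays: Sftpc, the alveolar type 2 surfactant protein, lay between 17.87 and 18.05, and Ager, a type 1 cell receptor, between 13.90 and 14.69. Some arrays stood apart. Gapmer 3 replicate 1 was low in genes of squamous and cornified epithelium, with a mean of 7.06 over the 25 measured members of that list, while the other 9 arrays lay between 8.76 and 9.13. Gapmer 3 replicates 2 and 3 were high in skeletal muscle genes, at 12.63 and 12.84 over 11 members, and replicate 1 was low at 8.10. Gapmer 1 replicate 4 was high in airway secretory genes, at 13.47 over 14 members, where the other 9 arrays lay between 12.56 and 13.07. Where leaving out 1 array moved a described value by much, the value without it is given beside it.

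**Figure D1:**
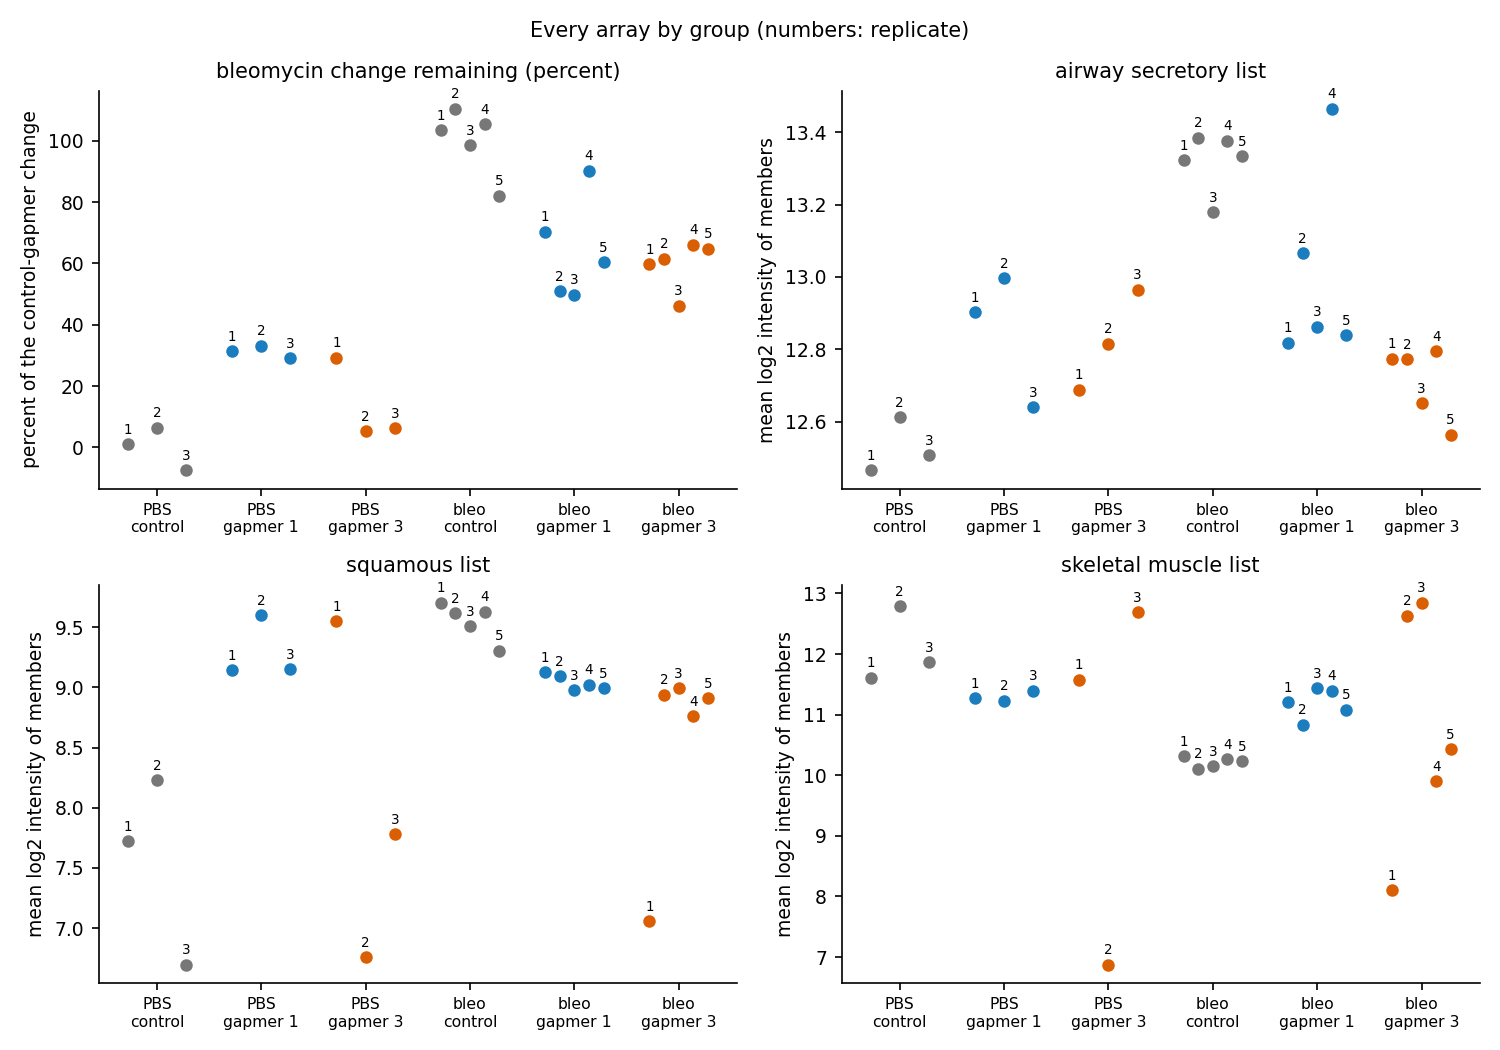
Each point is 1 array, numbered by replicate, in the 6 groups. The panels show each array's share of the bleomycin change under the control gapmer, in percent, and the mean log2 intensity of 3 gene lists. Gapmer 1 replicate 4 sits highest in its group for the bleomycin change at 90.3%, and gapmer 3 replicate 1 lies lowest among the bleomycin arrays in the squamous list, at 7.06.

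No gene passed the test between the gapmers in bleomycin lung. In a single limma fit of all 24 arrays, 0 of 20728 genes (0.0%) reached a Benjamini-Hochberg adjusted p under 0.05. At an unadjusted p under 0.05 stood 838 genes (4.04%), where 5.0% would be expected without any difference, and 642 of them (3.1%) were lower with gapmer 3 and 196 (0.946%) higher. The excess of lower values depended on the scaling: after centring each array on the median of its named genes, 683 genes had such a p, 354 lower and 329 higher. After quantile normalization over the named features the excess remained, with 533 lower and 245 higher. For 145 genes (0.7%) the 5 gapmer 3 arrays did not overlap the 5 gapmer 1 arrays, 124 (0.598%) lower and 21 (0.101%) higher. The median difference over all genes was -0.01. For comparison, gapmer 1 differed from the control gapmer in bleomycin lung at 2186 genes (10.5%) and gapmer 3 at 2726 (13.2%), both against the same 5 control arrays.

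**Figure D2:**
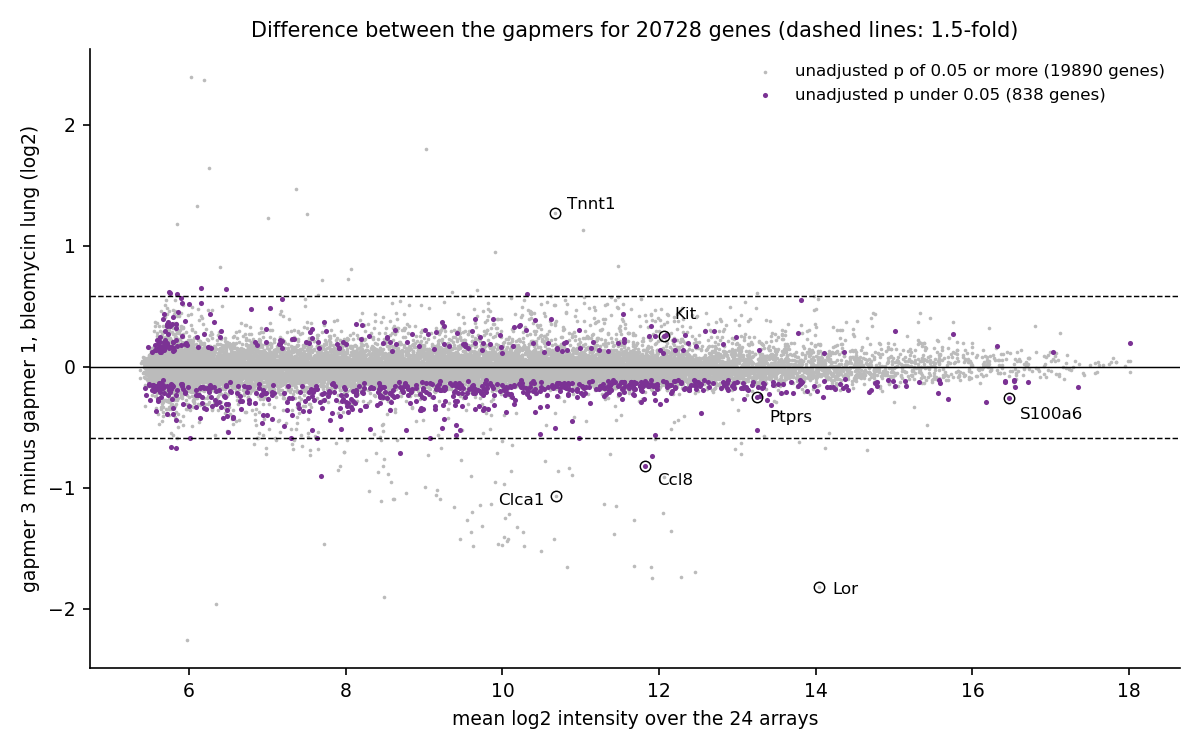
Each point is 1 of 20728 genes; the horizontal axis is its mean log2 intensity over the 24 arrays, the vertical axis gapmer 3 minus gapmer 1 in bleomycin lung on the log2 scale. The 838 genes with an unadjusted p under 0.05 are purple, and most genes lie inside the dashed 1.5-fold lines; Lor and Clca1, which lie far outside, are not among the purple ones.

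The data bounded the difference for most genes. The 95% interval of gapmer 3 minus gapmer 1 lay wholly within 1.5-fold in either direction for 19226 genes (92.8%) and within 2-fold for 20296 (97.9%). No gene had an interval wholly beyond 1.5-fold. The median half-width was 0.18 on the log2 scale, a factor of 1.14, and the 90th percentile was 0.36. Precision changed little with brightness: 94.4% of genes in the dimmest quartile and 94.1% in the brightest lay within 1.5-fold, against 90.6% and 91.9% in the quartiles between. The dimmest quartile had mean intensities of 5.37 to 6.11, near the lowest value, 5.03. A narrow interval there bounds the intensity, and whether it bounds the amount of RNA was not tested. These intervals hold gene by gene. With intervals that hold for all genes at once, chosen after seeing the data, 40.3% of genes lay within 1.5-fold. A single gene of median error would have needed a difference of about 0.56 to pass the adjusted threshold on its own.

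Dnm3os, the RNA targeted by both gapmers, can at most check gapmer against control labels. It cannot tell gapmer 1 labels from gapmer 3 labels. Its brightest feature, at the 28.5th percentile of mean intensity over genes, read 6.08, 5.99, 6.12, 6.48 and 6.24 with gapmer 1 and 6.29, 6.26, 6.26, 6.42 and 6.78 with gapmer 3. The groups overlapped, and the gapmer 1 arrays lay lower in the mean, at 6.18 ± 0.19 (SD, n = 5) against 6.40 ± 0.22. The control gapmer arrays in bleomycin lung lay at 6.90 ± 0.17, above the means of both. The limma difference was 0.22 (95% interval -0.003 to 0.44), with an unadjusted p of 0.0525 and an adjusted p of 0.992. An exact two-sided permutation test over the 10 arrays gave p = 0.143, adjusted to 0.429 over the 3 Dnm3os features, where the smallest possible p was 0.00794. The second feature differed by 0.07 and the third by -0.07. The third feature, at 5.80 with gapmer 1 and 5.72 with gapmer 3, also lay at 5.81 with the control gapmer. Without gapmer 3 replicate 5, the highest of its group, the difference of the brightest feature was 0.12. It was 0.29 without gapmer 1 replicate 4. Without gapmer 3 replicate 1 it was 0.25 (0.01 to 0.48), with an adjusted p of 0.83 by limma. In PBS lung the same feature differed by 0.21 in the same direction, with an adjusted p of 0.763 by limma.

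Dnm3 itself read 7.17, 8.46, 7.47, 7.14 and 7.46 with gapmer 1 and 7.33, 7.49, 6.93, 7.09 and 7.05 with gapmer 3. Gapmer 1 replicate 2 stood apart as the highest value. The difference of -0.36 (-0.75 to 0.04) became -0.13 without that array. Twist1, a transcription factor of mesenchymal cells, and Prrx1, another, differed by -0.06 (-0.26 to 0.13) and 0.11 (-0.11 to 0.33).

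The smallest p-values belonged to 3 genes that lay lower with gapmer 3, and none passed adjustment. Ccl8, a chemokine that attracts monocytes and other leukocytes, read 12.11, 12.17, 12.03, 12.90 and 12.69 with gapmer 1 and 11.67, 11.71, 11.54, 11.41 and 11.46 with gapmer 3. All gapmer 3 arrays lay below all gapmer 1 arrays, and all 10 lay below the lowest bleomycin control array, 12.95. The difference was -0.82 (-1.13 to -0.51), a factor of 1.77, with an unadjusted p of 1.58e-05 and an adjusted p of 0.284 by limma. Without gapmer 1 replicate 4 it was -0.69. The lower end of the unadjusted interval corresponded to a factor of 2.19. In PBS lung, on other arrays, Ccl8 lay 0.72 lower with gapmer 3 (adjusted p of 0.179 by limma).

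Ptprs, a receptor-type tyrosine phosphatase, read 13.37, 13.42, 13.49, 13.43 and 13.36 with gapmer 1 and 13.10, 13.20, 13.23, 13.13 and 13.14 with gapmer 3. The groups did not overlap. The difference was small and tightly bounded, -0.25 (-0.35 to -0.15), with an unadjusted p of 2.91e-05 and an adjusted p of 0.284 by limma. The 5 bleomycin control arrays lay between 13.44 and 13.55, near gapmer 1.

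S100a6, a calcium-binding protein, was among the brightest genes, and read 16.54, 16.58, 16.61, 16.69 and 16.55 with gapmer 1 and 16.44, 16.41, 16.26, 16.26 and 16.31 with gapmer 3. These values did not overlap either, and the difference was -0.26 (-0.36 to -0.15), with an adjusted p of 0.284 by limma. Next came Plch2, a phospholipase C, at -0.31 (-0.47 to -0.16), and Phgdh, which starts serine synthesis from a glycolytic intermediate, at -0.31 (-0.47 to -0.14). For both of them the arrays of the groups overlapped.

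Among genes that lay higher with gapmer 3, the smallest p-values were those of Mex3d, an RNA-binding protein, Kit, the receptor of stem cell factor, and Olfr198, an olfactory receptor. Mex3d read 9.56, 9.56, 9.58, 9.45 and 9.61 with gapmer 1 and 9.69, 9.75, 9.74, 9.76 and 9.81 with gapmer 3, a difference of 0.20 (0.10 to 0.29). Kit read 12.02, 11.93, 12.04, 12.00 and 11.71 with gapmer 1 and 12.20, 12.16, 12.18, 12.23 and 12.22 with gapmer 3, a difference of 0.25 (0.13 to 0.38). The second Kit feature differed by 0.26, and neither gene's groups overlapped. Bleomycin control arrays lay at 11.69 ± 0.07 (SD, n = 5) for Kit, below the means of both gapmers, though gapmer 1 replicate 5 lay among them. Olfr198 differed by 0.27 (0.13 to 0.41) at an intensity of 5.72, below the 25th percentile of gene means, 6.11. The other 2 genes given by this rule, 2510009E07Rik and Naaladl2, differed by 0.20 and 0.30. All of these genes had an adjusted p of 0.992 by limma.

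**Figure D3:**
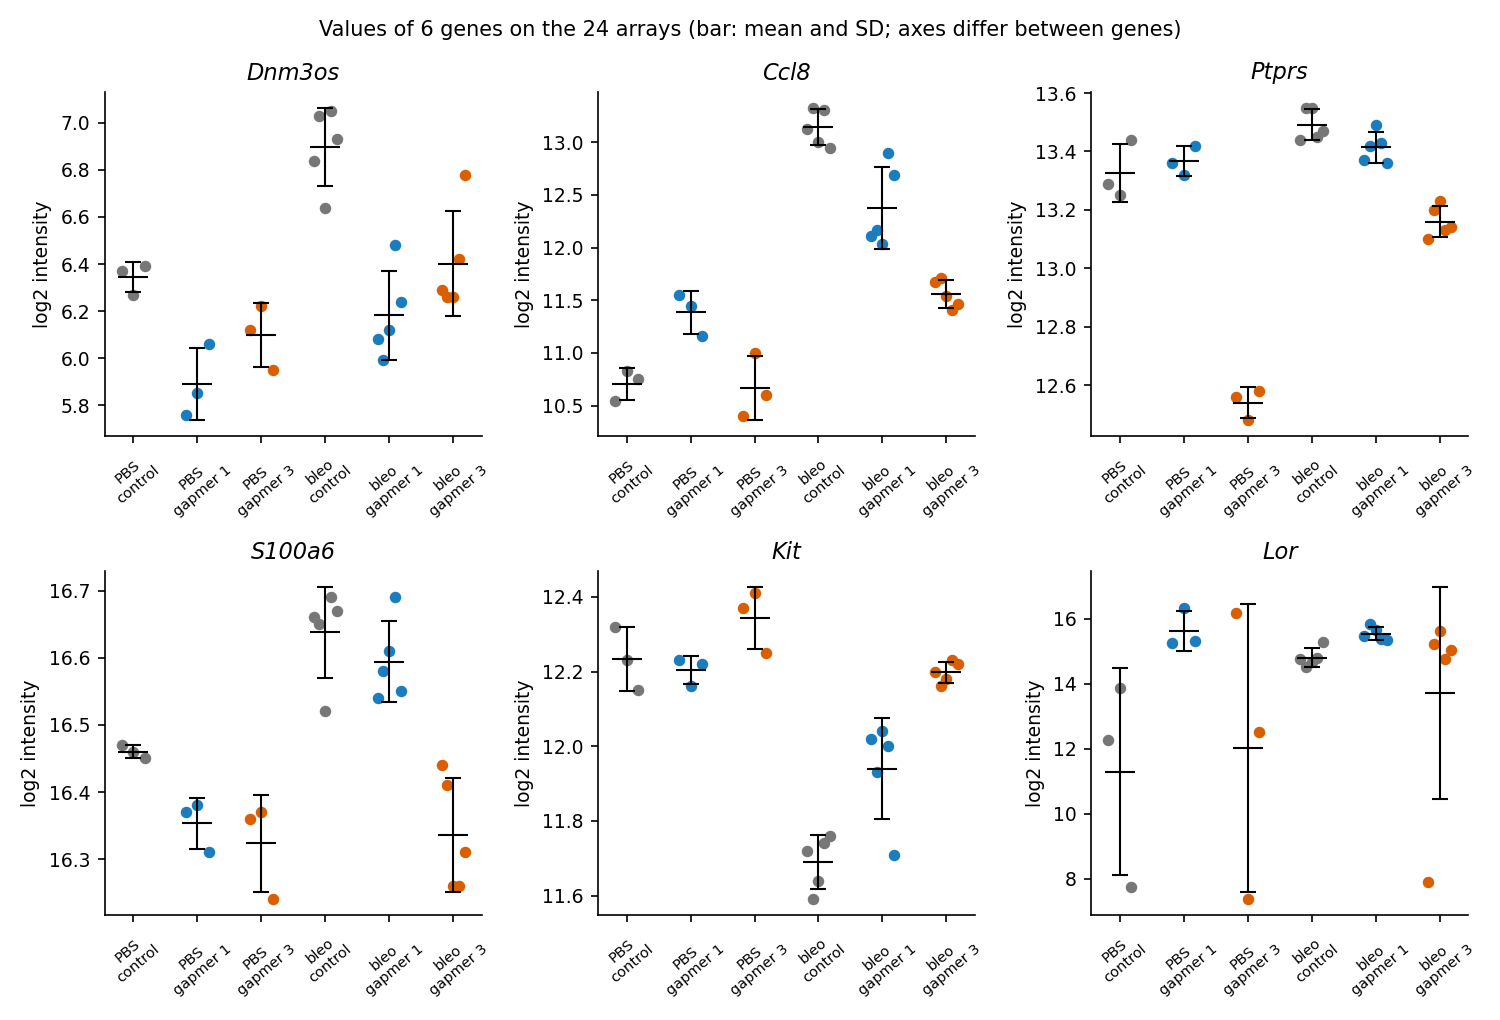
Log2 intensity of 6 genes on every array in the 6 groups, with the group mean and SD. Gapmer 3 lies below gapmer 1 without overlap in bleomycin lung for Ccl8, Ptprs and S100a6 and above it for Kit, Dnm3os overlaps, and for Lor 1 gapmer 3 array at 7.90 carries the difference.

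Extracellular matrix genes, which fibrosis is measured by, had a median difference of -0.01, as over all genes. Of 38 measured members of the list, 0 passed adjustment and 0 had an unadjusted p under 0.05. For 33 the interval lay within 1.5-fold, against 92.8% of all genes. The median half-width was 0.28, against 0.18 over all genes. Without gapmer 1 replicate 4 the median difference was 0.08. With array weights it was also 0.08, and 4 members lay higher and 1 lower with an unadjusted p under 0.05. Col1a1, the main chain of type I collagen, read 14.44, 13.97, 14.11, 14.90 and 14.35 with gapmer 1 and 14.54, 14.42, 14.15, 14.61 and 14.50 with gapmer 3. The arrays overlapped fully, and the difference was 0.09 (-0.18 to 0.36). Bleomycin had raised Col1a1 by 1.86 under the control gapmer. Col3a1, of type III collagen, differed by -0.01 (-0.29 to 0.27), and Fn1, fibronectin, by 0.07 (-0.17 to 0.32). Tnc, tenascin C of the provisional matrix, differed by -0.07 (-0.32 to 0.17).

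Elastin and the protease inhibitor Timp1 were less well bounded. Eln read 12.92, 11.58, 11.45, 13.05 and 10.92 with gapmer 1 and 12.38, 12.24, 11.47, 12.55 and 12.22 with gapmer 3. The difference was 0.19 (-0.47 to 0.85), and it turned to -0.07 without gapmer 1 replicate 5 and was 0.46 without replicate 4. Timp1 read 11.96, 11.52, 11.75, 13.45 and 12.45 with gapmer 1 and 12.41, 11.92, 11.51, 11.97 and 11.99 with gapmer 3, a difference of -0.27 (-0.78 to 0.25). Gapmer 1 replicate 4 was the high value, and without it the difference was 0.04. Spp1, osteopontin of fibrosis-associated macrophages, differed by 0.23 (-0.13 to 0.60), and by 0.08 without gapmer 3 replicate 1.

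No contractile or TGF-beta response gene passed adjustment. Acta2, the smooth muscle actin of myofibroblasts, differed by -0.15 (-0.39 to 0.09), by -0.04 without gapmer 1 replicate 4 and by -0.23 without its replicate 5. Of 14 contractile genes, 11 lay lower with gapmer 3, with a median of -0.07, and 13 were bounded within 1.5-fold. Of these 14, 1 had an unadjusted p under 0.05, against 4.04% of all genes. It was Tagln, an actin-binding protein, at -0.17. Without gapmer 1 replicate 4 Tagln lay at -0.11 and its p was above 0.05. Of 20 TGF-beta response genes, 2 had an unadjusted p under 0.05, against 4.04% of all genes, and both lay higher with gapmer 3. They were Smad7, an inhibitor of the pathway, at 0.34 (0.07 to 0.60), and Id1, a target of BMP signals, at 0.30 (0.05 to 0.55). Smad7 read 9.93, 10.19, 10.09, 9.87 and 10.12 with gapmer 1 and 10.08, 10.16, 10.50, 10.58 and 10.56 with gapmer 3, and the groups overlapped. Ccn2, connective tissue growth factor, differed by 0.07 (-0.23 to 0.37), and Tgfb1 by -0.14 (-0.39 to 0.11). The list's median was -0.01.

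All 12 measured genes described as targets of the microRNAs of Dnm3os had an interval within 1.5-fold, and 0 had an unadjusted p under 0.05. Cav1, the caveolae coat protein, differed by 0.09 (-0.16 to 0.34), Gsk3b, a kinase of the Wnt pathway, by 0.07 (-0.12 to 0.26), and Ptgs2, the inducible cyclooxygenase, by -0.16 (-0.44 to 0.11). The growth factors Fgf7 and Hgf, both made by fibroblasts for epithelium, differed by -0.09 (-0.31 to 0.12) and 0.06 (-0.11 to 0.23). The median over the 12 genes was 0.01.

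**Figure D4:**
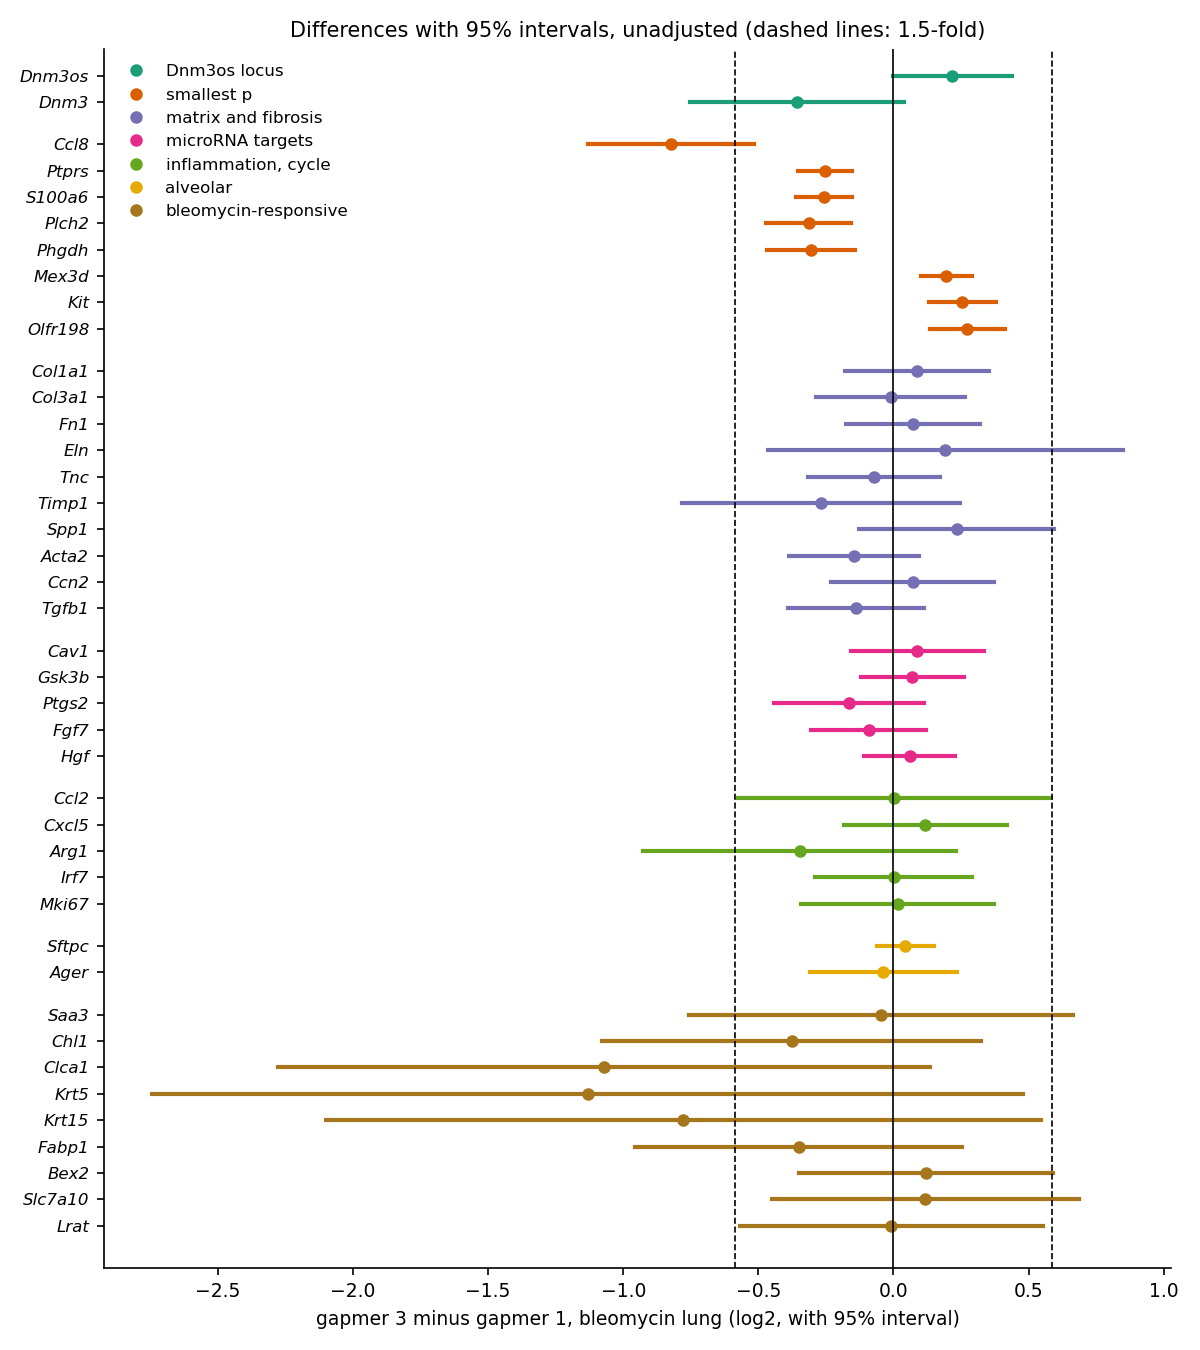
Gapmer 3 minus gapmer 1 in bleomycin lung with its unadjusted 95% interval on the log2 scale, for named genes in 7 sets; dashed lines mark 1.5-fold. Collagens, fibronectin and the microRNA targets lie inside the lines, and the widest intervals are those of Krt5, Krt15 and Clca1.

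Airway secretory genes, which make the mucus and defence proteins of the conducting airways, held the most members with an unadjusted p under 0.05 of any list; here and below, list members with such a p are named after their values were seen. Of 14 measured, 0 passed adjustment and 6 had an unadjusted p under 0.05, all lower with gapmer 3, against 3.1% of all genes. They were the gel-forming mucins Muc5ac and Muc5b, at -0.52 (-0.97 to -0.07) and -0.52 (-0.82 to -0.22), Agr2, a chaperone for mucins, at -0.34, the iron-binding lactoferrin Ltf at -0.56, the trefoil peptide Tff2 at -0.51, and Scgb3a1, a secretoglobin, at -0.27. The list's median was -0.23. Only 7 members were bounded within 1.5-fold.

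The airway values moved with gapmer 1 replicate 4. Clca1, a goblet cell protein that bleomycin had raised by 4.81 under the control gapmer, read 10.45, 10.78, 10.30, 14 and 10.34 with gapmer 1 and 10.59, 9.95, 9.49, 10.73 and 9.76 with gapmer 3. Replicate 4 stood apart from the other gapmer 1 arrays. The difference was -1.07 (-2.28 to 0.14) with it and -0.36 (-1.24 to 0.51) without it. Without it, 3 of the 14 genes kept an unadjusted p under 0.05 and the list's median was -0.18. Those 3 were Muc5b at -0.35, Ltf at -0.44 and Tff2 at -0.37.

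Muc5b read 13.22, 13.48, 13.24, 14.14 and 13.12 with gapmer 1 and 13.17, 13.12, 12.76, 12.89 and 12.66 with gapmer 3, overlapping at the lowest gapmer 1 array. Ltf read 12.03, 12.02, 12.06, 12.63 and 12.03 with gapmer 1 and 11.68, 11.74, 11.18, 11.72 and 11.62 with gapmer 3, without overlap. The club cell genes of the list lay near 0: Scgb1a1, the main club cell secretoglobin, differed by 0.04 (-0.08 to 0.17) and Cyp2f2, a club cell cytochrome, by 0.03 (-0.12 to 0.17). In PBS lung the list's median was -0.02, and Muc5b and Tff2 lay higher with gapmer 3, by 0.27 and 0.22. All 12 motile cilia genes were bounded within 1.5-fold, with a median of -0.003.

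Genes of damage-associated epithelium mark the keratin-rich state of injured alveolar cells. Of 14 measured, 4 had an unadjusted p under 0.05, all lower with gapmer 3, against 4.04% of all genes in either direction. They were Krt8 at -0.25 (-0.39 to -0.11), its partner keratin Krt18 at -0.16, Krt19 at -0.20, and Sfn, a 14-3-3 protein of epithelium, at -0.36. Krt8 read 14.43, 14.23, 14.36, 14.58 and 14.38 with gapmer 1 and 14.26, 14.16, 14.08, 14.16 and 14.07 with gapmer 3. The groups overlapped by 1 array each. Without gapmer 1 replicate 4, 2 of the 14 kept such a p. The list's median was -0.07, and 12 members were bounded within 1.5-fold. The lists of alveolar cells lay near 0: the type 1 list had a median of 0.06 with 14 of 14 genes within 1.5-fold, and the type 2 list 0.05 with 13 of 15. Ager differed by -0.04 (-0.31 to 0.24) and Sftpc by 0.04 (-0.06 to 0.15). Sftpc lay near the highest value of the table, 18.25, on all 24 arrays and differed by 0.04 between bleomycin and PBS under the control gapmer; whether its signal was saturated was not tested.

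The largest differences in size were among the least certain. By value, 58 genes differed more than 2-fold (0.28% of all genes), 47 lower with gapmer 3 (0.227%) and 11 higher (0.0531%), and the smallest unadjusted p among the 58 was 0.0782. Among them were 14 of the 17 measured late cornified envelope genes, which build the outer layer of skin, and 4 keratins. Of the 58, 12 had no overlap between the groups' arrays, against 0.7% of all genes. Choosing genes by the size of this same difference favours a higher share, so the count is a description. In PBS lung, 42 of the 47 lower genes were also more than 2-fold lower with gapmer 3. The PBS gapmer 3 arrays differed widely among themselves too, Lor from 7.37 to 16.18, so these 42 genes may not be separate results. For 50 of the 58, 1 gapmer 3 array stood apart from the rest, and without gapmer 3 replicate 1 only 6 genes lay more than 2-fold lower and 3 higher.

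Lor, loricrin of the cornified envelope, shows the pattern. It read 15.48, 15.83, 15.66, 15.37 and 15.34 with gapmer 1 and 7.90, 15.23, 15.63, 14.75 and 15.05 with gapmer 3. Replicate 1 alone was low, and the difference of -1.82 (-4.72 to 1.07) was -0.37 without it. Krt13, a keratin of stratified mucosa, differed by -1.35 and by -0.07 without that array, Lce3a by -1.70 and by -0.32, Lce1d by -1.66 and by -0.49, and Crct1, a gene of the same locus, by -1.73 and by -0.50. Krt5 and Krt15, basal cell keratins that bleomycin had raised, differed by -1.13 and -0.78, and by -0.45 and -0.21 without it. Krt14, their basal partner, differed by -0.16 and lay at 0.16 without it.

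Of the 25 squamous genes measured, 21 lay lower with gapmer 3, with a median of -0.33, and 10 were bounded within 1.5-fold. The unadjusted p was under 0.05 for 2 of the 25, Dsg3 and Ly6d, against 4.04% of all genes. Without gapmer 3 replicate 1 the median was -0.12, and 0 genes lay lower and 1 higher with such a p. In PBS lung Lor ranged from 7.37 to 16.18 among the 3 gapmer 3 arrays, and from 15.24 to 16.34 with gapmer 1. What set the squamous level of an array was not tested.

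Skeletal muscle genes varied as widely. Myh2, a fast muscle myosin, read 10.79, 9.17, 10.73, 12.47 and 11.06 with gapmer 1 and 8.80, 13.97, 13.91, 6.36 and 7.31 with gapmer 3. The difference of -0.77 (-3.70 to 2.16) had one of the widest intervals of all genes. Myh2 lay at 0.15 without gapmer 3 replicate 4 and at -1.75 without its replicate 2. Tnnt1, a slow muscle troponin, lay 1.27 higher with gapmer 3 (-0.18 to 2.73) and 0.58 higher without replicate 1. Of 11 muscle genes, 1 was bounded within 1.5-fold, and their median was -0.52. That median turned to 0.30 without gapmer 3 replicate 1. Without its replicate 2 or replicate 3 the median was -0.98 or -0.99. Of 9 adipose genes 1 was bounded within 1.5-fold and 5 within 2-fold, with a median of -0.21.

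**Figure D5:**
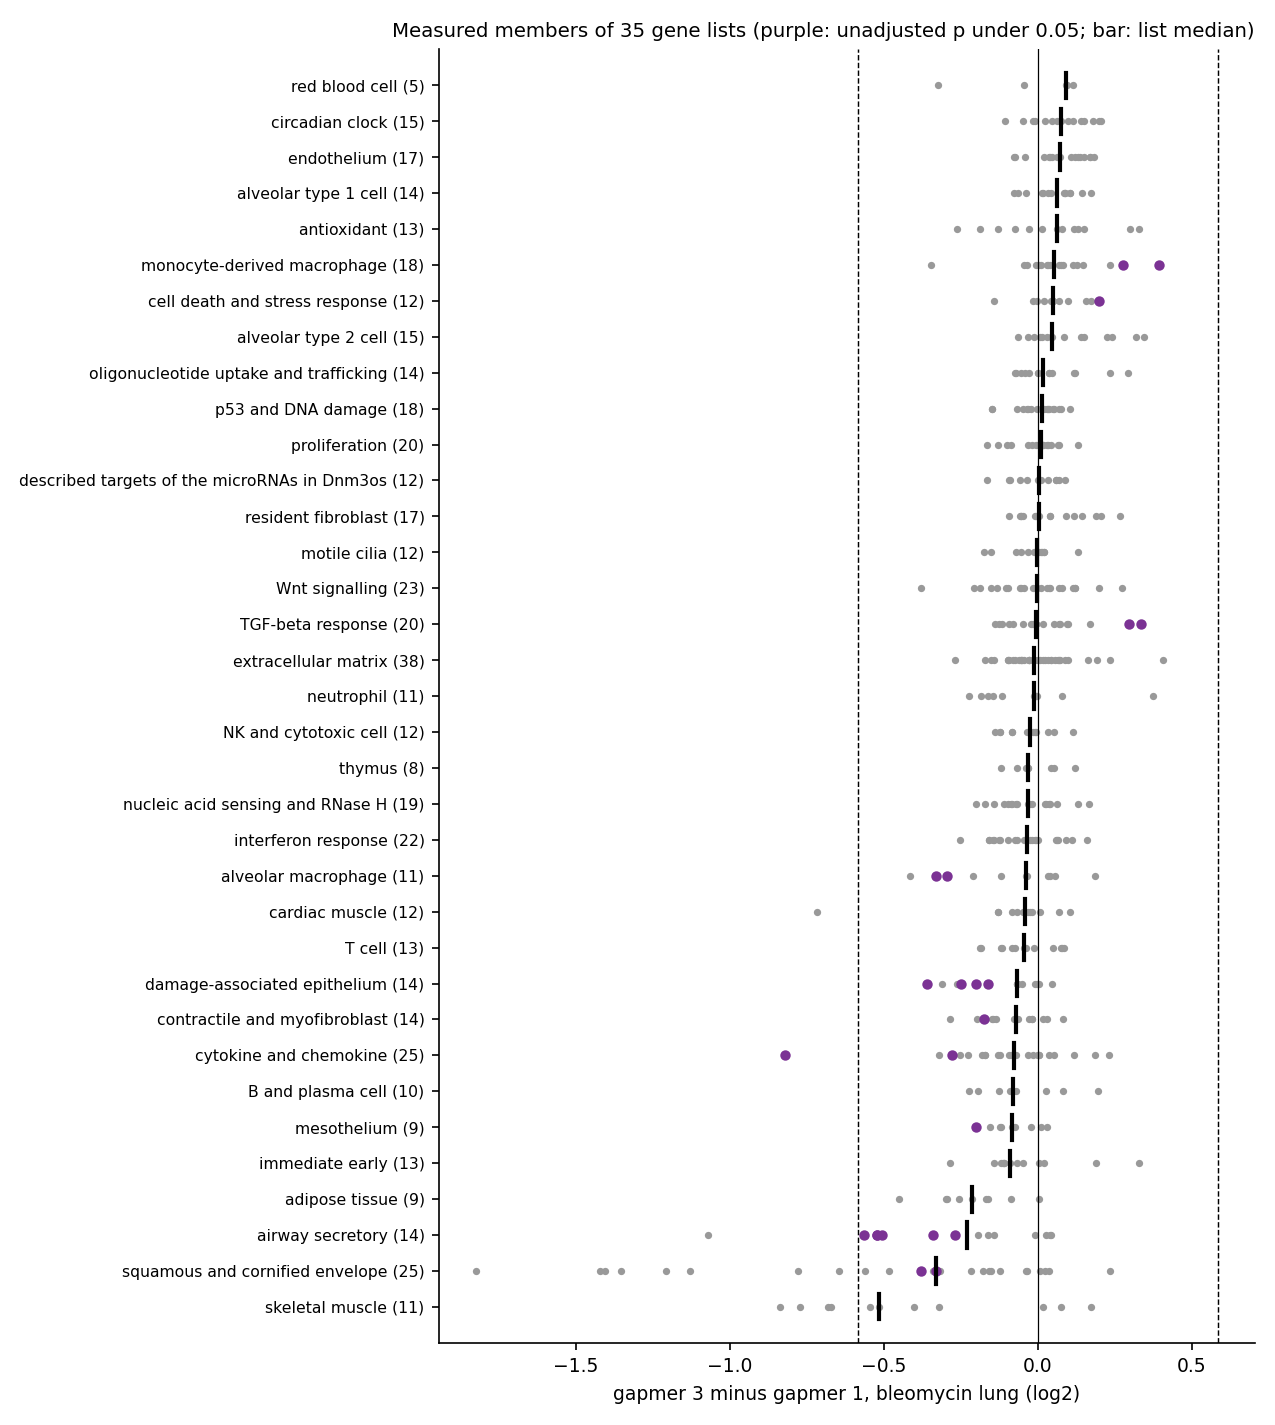
Each row is a gene list with its number of measured members, each point 1 member's gapmer 3 minus gapmer 1 in bleomycin lung on the log2 scale; members with an unadjusted p under 0.05 are purple, the bar is the list median and dashed lines mark 1.5-fold. Airway secretory genes hold 6 purple members, all on the lower side, and the squamous and muscle lists spread widest.

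No macrophage gene passed adjustment, and the medians were -0.04 for the alveolar list and 0.05 for the monocyte-derived list. Over all genes, 4.04% had an unadjusted p under 0.05. Of 11 alveolar macrophage genes, 2 had an unadjusted p under 0.05, both lower with gapmer 3: Siglecf, their defining lectin, at -0.33 (-0.59 to -0.07) and Chil3, a secreted chitinase-like protein, at -0.29 (-0.54 to -0.05). Siglecf read 10.47, 10.76, 10.68, 10.27 and 10.51 with gapmer 1 and 10.07, 10.10, 10.72, 10.06 and 10.09 with gapmer 3. Gapmer 3 replicate 3 alone lay among the gapmer 1 arrays, and without it the differences were -0.46 for Siglecf and -0.44 for Chil3. Without gapmer 3 replicate 5 Chil3 lay at -0.19, with a p above 0.05. Of 18 genes of monocyte-derived macrophages, 2 had such a p, both higher: Gpnmb, a glycoprotein of lipid-laden macrophages, at 0.39 (0.11 to 0.68) and Itgam, the integrin CD11b, at 0.28 (0.03 to 0.52). Itgam lay at 0.15 without gapmer 1 replicate 5. Gpnmb read 11.45, 11.26, 11.02, 11.17 and 11.65 with gapmer 1 and 11.78, 11.50, 11.66, 11.76 and 11.81 with gapmer 3, overlapping at 1 gapmer 1 array.

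Of 25 cytokines and chemokines, 0 passed adjustment and 2 had an unadjusted p under 0.05, against 4.04% of all genes. They were Ccl8 and Cxcl14, a chemokine of epithelium, the latter at -0.28 (-0.49 to -0.06). Ccl2, the main monocyte attractant, differed by 0.00 (-0.58 to 0.58), and Cxcl5, a neutrophil attractant, by 0.12 (-0.18 to 0.42). Arg1, arginase of alternatively activated macrophages, differed by -0.35 (-0.93 to 0.23), and by -0.12 without gapmer 1 replicate 4. All 20 proliferation genes were bounded within 1.5-fold, Mki67 at 0.02 (-0.34 to 0.37), as were all 17 endothelial genes, with medians of 0.01 and 0.07.

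The lists of nucleic acid sensing, interferon response and oligonucleotide uptake, which bear on the oligonucleotides themselves, held 0 genes with an unadjusted p under 0.05. All 19 measured genes of nucleic acid sensing and RNase H were bounded within 1.5-fold, with a median of -0.03. Rnaseh1, the enzyme that cleaves RNA paired with a gapmer, differed by 0.03 (-0.14 to 0.19), and Tlr9, the receptor of unmethylated CpG DNA, by 0.13 (-0.06 to 0.32). Of 22 interferon response genes 20 were bounded, with a median of -0.03, and Irf7, the factor that amplifies interferon, differed by 0.00 (-0.29 to 0.29). Of 14 genes of oligonucleotide uptake and trafficking, 12 were bounded, with a median of 0.02. The cell stress list held 1 of 12 with such a p, against 4.04% of all genes. It was Trib3, a pseudokinase of the stress response, at 0.20, and at 0.14 with a p above 0.05 without gapmer 1 replicate 4.

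The bleomycin response gives a scale for these limits. Under the control gapmer 883 genes had passed adjustment with more than a 2-fold difference, 592 raised and 291 lowered. Of these 883 genes, 73.2% had a gapmer 3 minus gapmer 1 interval within 1.5-fold and 89.9% within 2-fold. For 721 of them (81.7%) the interval kept the difference below 50% of the gene's own bleomycin change, and for 249 (28.2%) below 25%. The 592 raised genes had a median difference of -0.05, with 388 lower with gapmer 3, and the 291 lowered genes a median of 0.01. Against the control gapmer, the raised genes had medians of -0.49 with gapmer 1 and -0.55 with gapmer 3, from the same control arrays. Those control arrays also chose these genes for being high on them, which favours negative medians in advance. How much of the medians this choice gave was not tested.

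Saa3, an acute-phase protein among the 10 most raised, differed by -0.05 (-0.76 to 0.66), and by 0.35 without gapmer 1 replicate 4. Chl1, a cell adhesion molecule, differed by -0.38 (-1.08 to 0.33), and by -0.17 without gapmer 1 replicate 4. Among the 10 most lowered, Fabp1, a fatty acid-binding protein, differed by -0.35 (-0.96 to 0.25), Bex2 by 0.12 (-0.35 to 0.59), the amino acid transporter Slc7a10 by 0.12 (-0.45 to 0.69), Lrat, which esterifies retinol, by -0.01 (-0.57 to 0.55), the adipokine Retn by -0.45 (-1.26 to 0.36) and the keratin Krt79 by -0.41 (-0.98 to 0.15). Single arrays moved these values: Fabp1 lay at -0.18 without gapmer 1 replicate 2 and at -0.66 without gapmer 3 replicate 3, Retn at -0.19 without gapmer 3 replicate 4, and Bex2 and Slc7a10 at -0.10 and -0.16 without gapmer 1 replicate 4. Pvalb and Ckmt2, both of muscle, differed by 0.17 (-1.47 to 1.82) and 0.27, and lay lower with gapmer 3 without its replicate 2, by values of -0.31 and -0.20. Pvalb lay at 0.61 without gapmer 3 replicate 1, and Ckmt2 at 0.62 without gapmer 3 replicate 5.

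Expressed as a share of the bleomycin change under the control gapmer, fitted over the 7001 genes (33.8%) called between bleomycin and PBS under the control gapmer, the gapmer 1 arrays lay at 70.3%, 50.9%, 49.8%, 90.3% and 60.4%, and the gapmer 3 arrays at 59.8%, 61.5%, 46.2%, 66.2% and 64.8%. On the same scale PBS arrays, which had no bleomycin, lay at 31.5%, 33.2% and 29.1% with gapmer 1 and at 29.3%, 5.39% and 6.29% with gapmer 3, so the measure is not of bleomycin alone. The control gapmer arrays chose these genes and set the scale. This fixes the mean of the bleomycin control arrays at 100% and favours lower values on other bleomycin arrays. The bleomycin groups overlapped, with means of 64.4% ± 16.7 (SD, n = 5) and 59.7% ± 7.95, and medians of 60.4% and 61.5%. Gapmer 1 replicate 4 was the highest of the 10 arrays and gapmer 3 replicate 3 the lowest. Across all genes the SD was larger among gapmer 1 than among gapmer 3 arrays for 66.3% of genes, with median SDs of 0.15 and 0.11.

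The same pair of gapmers in PBS lung, on 6 arrays that the bleomycin comparison does not share, differed at 12 genes (0.0579%) by limma, 3 higher (0.0145%) and 9 lower (0.0434%) with gapmer 3, and 1890 genes (9.12%) had an unadjusted p under 0.05. Ptprs fell by 0.83 there (adjusted p 7.96e-08), from 13.36, 13.32 and 13.42 to 12.56, 12.48 and 12.58. Spag11b, a gene of the sperm-associated antigen 11 family of defensin-like peptides, rose by 1.92 (adjusted p 7.96e-08), from 7.66, 7.83 and 7.73 to 9.61, 9.52 and 9.85. Per1, of the circadian clock, lay 1.16 higher with gapmer 3, and Riox1, an oxygenase of histones and ribosomal proteins, 0.56 higher. Lower with gapmer 3 were Trem2, Itgax and Ctss of macrophages, by 0.90, 0.44 and 0.71, and coagulation factor F7, by 0.63. The other 4 genes, Sdk1, Fxyd4, Krtap17-1 and 4833418N02Rik, also lay lower. All these directions are relative to gapmer 1. For several genes the PBS control median lay near gapmer 3. In the order control, gapmer 1 and gapmer 3, PBS medians were 14.06, 12.89 and 13.96 for Per1 and 9.58, 10.28 and 9.62 for F7. Itgax had 12.08, 12.53 and 12.16. For Ptprs, Spag11b and Krtap17-1 gapmer 3 lay further from the control than gapmer 1 did. The count of 12 varied with single arrays: it was 253 without PBS gapmer 3 replicate 1, 6 without its replicate 2, 5 without its replicate 3 and 27 without PBS gapmer 1 replicate 2.

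In bleomycin lung most of these 12 genes lay near 0. Apart from Ptprs, F7 alone had an unadjusted p under 0.05, at -0.22 (-0.41 to -0.03), and without gapmer 1 replicate 4 F7 lay at -0.13, with a p above 0.05. Per1 differed by -0.01 (-0.32 to 0.30), Riox1 by 0.02, Itgax by -0.02, Ctss by 0.01 and Trem2 by 0.07, each bounded within 1.5-fold, and 8 of the 12 had the same sign. Spag11b differed by -0.12 (-0.35 to 0.11) with gapmer 3, against the rise in PBS lung.

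The difference between the 2 settings was itself tested, and 2 genes passed (0.00965%), 1 in each direction (0.00482% each), while 1151 (5.55%) had an unadjusted p under 0.05. For Spag11b the gapmer difference was 2.04 lower in bleomycin than in PBS lung (adjusted p 4.27e-06 by limma). For Ptprs it was 0.58 higher, that is, smaller in size after bleomycin (adjusted p 0.00289). Both passed without any single array of the 16, the largest adjusted p being 0.0248 for Ptprs without PBS gapmer 3 replicate 2. The second Spag11b feature gave 1.84 in PBS and -0.04 in bleomycin lung. The next genes, 4833418N02Rik, Trem2 and Csf2ra, a subunit of the GM-CSF receptor, had adjusted p-values of 0.118, 0.177 and 0.177.

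Over all genes, the direction of the difference was the same in bleomycin and PBS lung for 53.5%. Of the 838 genes with an unadjusted p under 0.05 in bleomycin lung, 546 (65.2%) had the same direction in PBS lung, and 87 (10.4%) also had such a p there, against 5.45% of all genes; the share was 12.1% of the 642 lower and 4.59% of the 196 higher genes. Of the 145 genes without overlap in bleomycin lung, 111 (76.6%) had the same direction in PBS lung and 50 (34.5%) also had such a p there. The 145 may not be separate results. Of them, 12 also differed more than 2-fold in bleomycin lung, among them Crct1, which ranged from 5.58 to 14.51 with gapmer 3 in PBS lung. Both sets of arrays were free of overlap, in the same direction, for 8 of these 145 genes, picked out by these values. In PBS lung alone, 14.5% of all genes had no overlap, and 3 arrays against 3 cannot reach an exact p below 0.1. That share counts either direction. As 8 of 145 is a smaller share, the 8 genes are given as values only. Ccl8, Ptprs, P3h1, a prolyl hydroxylase of collagen, Washc1, of the endosomal WASH complex, and Foxn4, a transcription factor, lay lower with gapmer 3 in both settings. Mex3d, Kit and Plagl1, a zinc finger transcription factor, lay higher in both. P3h1 differed by -0.16 in bleomycin and -0.15 in PBS lung, Washc1 by -0.12 and -0.17, Foxn4 by -0.21 and -0.14, and Plagl1 by 0.19 and 0.37.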

How the data were processed

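Total RNA from 24 whole-lung samples was measured on one-colour Agilent arrays. The deposited values were log2 intensities of 62976 features, nearly equal in distribution on all arrays, and limma was used per the submitters' processing notes. The background correction and scanner settings were not stated. Of the features, 31465 had 1 gene symbol and 31511 none. Symbols were updated to RefSeq names of GRCm38.p6 (18550 of 20774 current, 1969 by accession, 250 by synonym, 5 kept), and the feature with the highest mean over the 24 arrays stood for its gene.

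Groups came from the sample titles. All 24 arrays entered 1 fit of 6 group means in limma 3.58.1 (R 4.3.3) with lmFit and eBayes, two-sided, with Benjamini-Hochberg adjustment over 20728 genes and calls at an adjusted p under 0.05. Intervals were 95% and unadjusted unless stated. Exact two-sided permutation tests used SciPy 1.17.1. The procedure was tested on simulated data.

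Named genes were a set of genes of the Dnm3os locus, its microRNA targets, fibrosis and inflammation; the 5 smallest p-values in each direction; the 10 genes most raised and the 10 most lowered by bleomycin; the 5 widest intervals above the median level; and the 5 smallest p-values for the difference between bleomycin and PBS. These genes and the 35 lists (535 measured memberships) were chosen with earlier results of these data known.

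Alternatives were median centring, repeated quantile normalization, a filter on dim genes, other treatments of a gene's features, a variance trend, robust variance, array weights, RNA integrity as covariate, the replicate block, only the groups compared, other thresholds and intervals, and each array left out. Removal of a position trend and intervals simultaneous over genes were added after seeing the data.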

Additional observations from a re-analysis of the deposited data

Results flagged for a closer look

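For 16 of 124 groups of 5 arrays tested among the named genes, 1 array lay far from the others: its gap to the nearest array, as a share of the group's whole range, exceeded the critical value of 0.71. Chance gives about 1 in 20 for genes chosen without these values, which does not hold here: some of the genes were named for wide intervals, which 1 distant array can give, so the count is a description. Gapmer 3 replicate 1 was the lowest array, with shares of 0.859 for Krt5, 0.899 for Krt15, 0.718 for Krt14, 0.88 for Lce1d, 0.92 for Lce3a, 0.886 for Lor, 0.906 for Krt13 and 0.911 for Crct1, all of squamous or basal epithelium, and 0.779 for the growth factor Fgf7. Gapmer 3 replicate 3 was lowest for Tnc at 0.839 and Ccl2 at 0.739 and highest for Fabp1 at 0.769. Among gapmer 1 arrays, replicate 4 was highest for Clca1 at 0.871, replicate 2 for Dnm3 at 0.755 and replicate 5 for 4833418N02Rik at 0.72, and replicate 5 was lowest for Tgfb1 at 0.752.

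For 2 genes the difference between the gapmers was itself different in bleomycin and PBS lung by limma's test: the log2 difference, bleomycin minus PBS, was 0.575 for Ptprs and -2.038 for Spag11b.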

How the results depend on the processing

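Between the gapmers in bleomycin lung, 0 genes were called under every alternative run, while 557 (without gapmer 3 replicate 5) to 2474 (array weights) had an unadjusted p under 0.05. Among the genes named here, the lowest adjusted p by limma was 0.0841, shared by Ccl8 and Ptprs, with array weights. Across the lists, 22 of 522 distinct genes had an unadjusted p under 0.05 where 0 were called, against 4.04% of all genes. The share of genes bounded within 1.5-fold was 40.3% with simultaneous intervals. In PBS lung 161 genes were called with array weights, 26 with the position trend removed, 5 with RNA integrity as covariate, 1 with only the groups compared, and 5 to 253 with single arrays left out. For the difference between bleomycin and PBS lung, 8 were called with array weights, and 2 to 12 with single arrays left out. The cause of these shifts was not tested. With the replicate block, 0 genes were called in bleomycin lung, 989 had an unadjusted p under 0.05, and 14 were called in PBS lung; the deviations of samples that share a number were not correlated for every number, so the numbers were not taken as pairs. The number of arrays limits all counts.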

Other observations

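Of the 31511 features with no gene symbol here, 0 differed between the gapmers in bleomycin lung by limma, and 1021 had an unadjusted p under 0.05.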
